A study of Mus musculus with 4 samples.

Results

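Fat-type capillary endothelium is the lining of the capillaries that feed adipose tissue, and barcodes with its transcripts were picked out of the mouse renal capsule, the connective tissue sheath of the kidney with its attached fat. The barcodes were selected on measured transcripts: at least 3 UMIs in sum of Pecam1, Cdh5, Flt1 and Egfl7, 0 of the leukocyte gene Ptprc, at least 3 in sum of Timp4, Rbp7 and Gpihbp1, and fewer than 2 of Plvap. UMIs (unique molecular identifiers) count captured transcript molecules. Of 37361 barcodes kept with at least 500 UMIs, 300 genes and at most 20% mitochondrial UMIs, 1560 passed the endothelial conditions and 503 were members. They numbered 225 and 129 in young replicates 1 and 2, and 49 and 100 in aged replicates 1 and 2. Values of 4 libraries below follow that order. Each library held untreated whole capsule, digested to a suspension and sequenced by a droplet 3' method. The labels name only young and aged mice; ages, strain and the number of mice per library were not analysed here, and p-values measure the spread between these libraries, which may be technical.

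Capillaries of fat pass fatty acids from blood lipoproteins to adipocytes. Lipoprotein lipase (Lpl) is made by adipocytes and other parenchymal cells and is carried to the capillary lumen by Gpihbp1. The fatty acids it frees are taken up with the help of Cd36 and bound inside the cell by Fabp4 and Fabp5. Tcf15 and Meox2 are transcription factors that drive this uptake programme in endothelium, and Pparg is the nuclear receptor of lipid-handling cells. Plvap forms the diaphragms of fenestrae and caveolae in more permeable vessels, and the rule leaves out barcodes rich in it.

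The genes of the rule were given as a description only, since they chose the members. Rbp7, a retinol-binding protein, stood at 1127, 823, 1217 and 1378 CPM (a gene's UMIs scaled to the same total of UMIs of the part in every library) in members. Timp4, an inhibitor of matrix metalloproteinases, stood at 896, 663, 577 and 487 CPM. Outside the members, the 965 other blood endothelial barcodes are the endothelial ones with fewer than 2 UMIs in sum of Prox1, Lyve1, Mmrn1 and Flt4. They had Rbp7 at 286, 561, 68.6 and 33.1 CPM and Timp4 at 122, 264, 9.27 and 8.82 CPM, so the aged libraries held less of both outside the members than the young ones. Gpihbp1 was less restricted, at 2605, 2390, 3447 and 3011 CPM in members and 673, 1057, 1061 and 1470 CPM in the others. Plvap was 19.7, 16.3, 40.9 and 45.6 CPM in members against 741, 823, 3001 and 3903 CPM in the others. Members with a sum of exactly 3 over Timp4, Rbp7 and Gpihbp1 numbered 7, 5, 4 and 7 against medians of 17, 14, 14 and 12 UMIs, and 10, 6, 2 and 15 barcodes lay just outside with 2.

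Rbp7 and Timp4 give the members their name, so the bases upstream of their starts are shown. The separation by these genes differed between libraries: in endothelial barcodes with 2 or more Plvap UMIs, Rbp7 was at 507, 1020, 86.9 and 33.9 CPM and Timp4 at 206, 460, 9.39 and 8.02 CPM, so in young replicate 2 Rbp7 was higher there than in members. They are 200 bases each from RefSeq on GRCm38.p6, read on the gene's strand and ending 20 bases before the RefSeq start. Rbp7 lies on the minus strand, at chr4:149454989-149455188, and Timp4 on the minus strand at chr6:115252226-115252425. Capitals mark AGGAAG, the core bound by ETS factors, and CANNTG, the E-box bound by basic helix-loop-helix factors such as Tcf15, on either strand.
Rbp7: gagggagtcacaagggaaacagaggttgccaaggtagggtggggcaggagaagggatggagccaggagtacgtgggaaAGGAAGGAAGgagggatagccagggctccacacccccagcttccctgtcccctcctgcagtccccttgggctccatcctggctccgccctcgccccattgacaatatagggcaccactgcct
Timp4: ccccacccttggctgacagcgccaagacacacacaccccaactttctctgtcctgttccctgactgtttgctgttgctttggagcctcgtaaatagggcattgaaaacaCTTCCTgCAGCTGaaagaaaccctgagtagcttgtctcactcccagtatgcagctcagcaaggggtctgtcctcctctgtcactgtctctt
The Rbp7 window held 2 overlapping AGGAAG and 0 CANNTG matches, and the Timp4 window 1 of each. Among 32851 promoter windows of the same length, 24.2% held AGGAAG and 58.6% CANNTG, so these matches are common letters and describe the windows only.

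The label was checked on Tcf15, the marker that the rule did not use. It was at 935, 922, 868 and 925 CPM in members against 174, 212, 138 and 222 CPM in the other blood endothelium and 2.12 to 2.65 CPM in non-endothelial barcodes. A Tcf15 UMI was present in 87.1%, 85.3%, 81.6% and 83.0% of members. In leukocyte barcodes, at median depths of 5274 to 8243 UMIs against 2584 to 3932 in members, it was present in 0.686% to 0.877%. With every barcode thinned to 2000 UMIs, which left out 44, 20, 8 and 36 members, the members' shares were 81.2%, 77.1%, 65.9% and 65.6%. In the other blood endothelium 36.8%, 43.7%, 35.7% and 35.7% of barcodes held a Tcf15 UMI, so it was more common in members but not restricted to them.

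The libraries kept 8988, 9637, 6763 and 11973 barcodes, with totals from 51180311 to 70925446 UMIs before filtering. The member sums held 1169115, 675431, 220161 and 328806 UMIs, so the aged sums were the shallower. Members had a median of 3344, 3813, 3932 and 2584 UMIs. From 18 to 37 barcode sequences were shared between pairs of libraries, and 1 of them was a member in 2 libraries. Counts of replicate libraries differed beyond counting error (chi-square over degrees of freedom 1.97 for the young and 2.86 for the aged member sums).

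Members made up most of the endothelium in the young libraries and a small part of it in the aged ones. Their share of endothelial barcodes was 70.1% (95% Clopper-Pearson interval 64.8 to 75.1%), 61.7% (54.8 to 68.3%), 15.9% (12.0 to 20.4%) and 13.9% (11.4 to 16.6%). The means were 65.9 ± 5.92% and 14.9 ± 1.41% (SD, n = 2 libraries), a 4.43-fold difference, and the ages did not overlap. Endothelial barcodes with 2 or more Plvap UMIs went the other way, at 12.8%, 15.8%, 60.5% and 69.6%. Those with neither set of genes were 14.3%, 18.2%, 15.5% and 9.71%. The parts exclude each other and have the same denominator, so their shares are not independent. These intervals cover counting error only.

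On other denominators the difference was smaller. In a whole capsule sample, fewer cells of a type and fewer of its cells captured cannot be told apart. Of all barcodes kept, members were 2.5%, 1.34%, 0.725% and 0.835%, a 2.46-fold lower mean in the aged libraries. Of barcodes without Ptprc UMIs they were 3.79%, 1.96%, 1.94% and 1.83%, where young replicate 2 stood beside both aged libraries. Endothelial barcodes as a whole were 3.57%, 2.17%, 4.57% and 6.02% of all barcodes, higher in both aged libraries. An exact permutation test of 2 libraries against 2 cannot go below p = 0.33, and each of these 3 shares gave p = 0.33 (two-sided). Another setting put no condition on Plvap and kept the sum of at least 3 UMIs over Timp4, Rbp7 and Gpihbp1, which 1 gene alone can reach. Such barcodes were 2.93%, 1.62%, 2.69% and 3.42% of all and 81.9%, 74.6%, 58.9% and 56.9% of endothelial barcodes. In the aged libraries 133 and 310 barcodes with 2 or more Plvap UMIs reached that sum, against 38 and 27 in the young ones. A further setting, added after seeing the data, took at least 2 UMIs in sum of Timp4 and Rbp7 and any Plvap. It changes the genes, the threshold and the Plvap condition together. Its barcodes were 2.31%, 1.15%, 0.621% and 0.735% of all and 64.8%, 53.1%, 13.6% and 12.2% of endothelial barcodes.

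**Figure D1:**
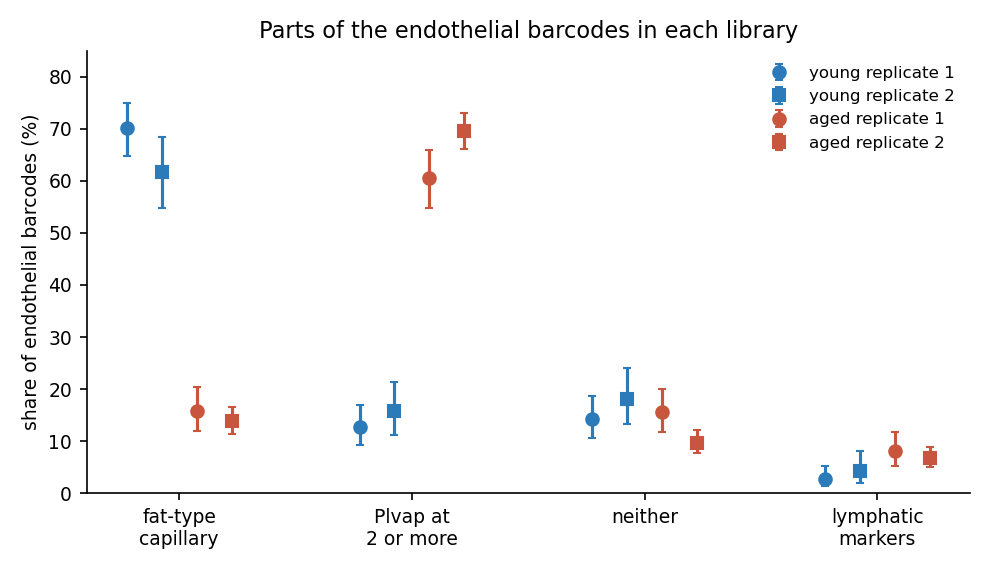
Share of endothelial barcodes (%, vertical axis) held by 4 parts of the endothelium in each library, with 95% Clopper-Pearson intervals as bars. Fat-type capillary barcodes are at 70.1% and 61.7% in the young and 15.9% and 13.9% in the aged libraries, and the part with 2 or more Plvap UMIs goes the other way. The parts exclude each other, so their shares are not independent.

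Against the other blood endothelium the members carried a wide set of lipid-handling transcripts. This contrast is a description with no test, because transcripts of these same barcodes chose the parts. Of 1527 genes that reached 50 CPM in the mean of either part and lay on the same side in all 4 libraries, 147 were more than 2-fold higher and 281 more than 2-fold lower in members (CPM plus 5). Of the 39 genes of a fatty acid handling list, taken at any CPM, 19 were higher in members in all 4 libraries and 3 lower. Among the 4001 genes of at least 50 CPM, 675 were higher and 852 lower, so the filters of the 2 counts differ. The list holds Gpihbp1, which chose the members.

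Genes of fatty acid uptake and storage stood out. Fabp4, the fatty acid-binding protein of adipocytes and capillaries, was at 41760, 36671, 39517 and 35671 CPM in members and 10234, 14439, 5927 and 7499 CPM in the others. Cd36, the fatty acid translocase, was at 4122, 3238, 3566 and 3339 CPM against 1011, 1351, 588 and 628 CPM. Aqp7, the glycerol channel of fat, was at 388, 292, 277 and 280 CPM against 53.4, 72.3, 7.42 and 9.37 CPM. Mgll, the lipase of monoacylglycerols, was at 1831, 1686, 2312 and 1828 CPM against 518, 795, 392 and 535 CPM. In each of these the lowest member library lay above the highest library of the other part.

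The transcription factors followed the same order. Meox2 was at 242, 249, 286 and 222 CPM in members against 94.2, 79.8, 38.0 and 17.1 CPM. Pparg was at 243, 225, 236 and 161 CPM against 58.1, 74.8, 22.3 and 19.3 CPM. Neither gene's ranges overlapped between the parts.

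Surface and barrier genes were high as well. Car4, a membrane-bound carbonic anhydrase of capillaries, was at 532, 459, 377 and 377 CPM in members and 29.8, 47.4, 6.49 and 14.9 CPM in the others, a 17.7-fold ratio of means. Cldn5, the tight junction protein of endothelium, was at 2418, 2490, 3979 and 3558 CPM against 716, 840, 296 and 218 CPM. The water channel Aqp1, the ion channel gene Kcna5, the nucleoside transporter Slc28a2, the zinc transporter Slc39a8, the adenosine receptor Adora2a, Nepn and Tmem182 were also among the 15 genes with the highest ratios (5.56 to 13.6 times by means). Lyve1 topped that list at 77.8, 338, 9.08 and 313 CPM, but the other part had been cleared of lymphatic barcodes, and only 16, 11, 2 and 6 members held a Lyve1 UMI.

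Cxcl9, an interferon-induced chemokine that attracts T cells, was at 479, 355, 504 and 900 CPM in members against 28.3, 7.48, 107 and 59.6 CPM in the others and 24.0 to 62.3 CPM in non-endothelial barcodes. It was spread over 58.7%, 55.0%, 57.1% and 40.0% of members, although in aged replicate 2 a single barcode gave 143 of its 296 UMIs. Cxcl10, a related chemokine, was at 4.28, 8.88, 4.54 and 131 CPM in members, high in aged replicate 2 alone.

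Genes low in members included Esm1, Lepr and Ptpru. Esm1, a proteoglycan of growing vessels, was at 14.5, 51.8, 13.6 and 33.5 CPM in members against 265, 324, 1119 and 1082 CPM. Lepr, the leptin receptor, was at 3.42, 5.92, 0 and 24.3 CPM against 80.0, 74.8, 298 and 300 CPM. Plvap of the rule, Myoc, Thbs4, Cilp, Cpxm2, Matn2 and 1500015O10Rik made up the rest of the 10 lowest. Myoc, the gene of myocilin, was also found in non-endothelial barcodes, at 272, 367, 92.2 and 116 CPM.

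**Figure D2:**
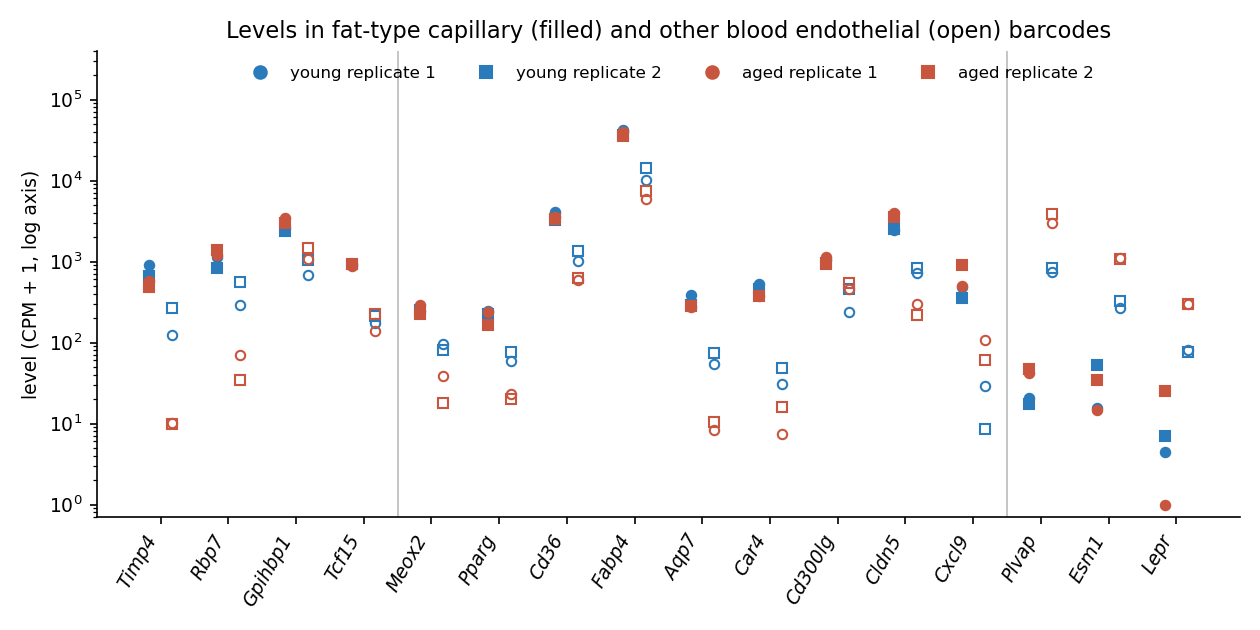
Levels of 16 genes (CPM + 1 on a log axis) in fat-type capillary barcodes (filled) and other blood endothelial barcodes (open) of each library. The 4 genes left of the first line are the named markers, the next 9 are high in members in all 4 libraries and the last 3 are low.

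Transcripts of other cells were measured in the members. The summed level of 8 adipocyte markers was 2218, 1578, 772 and 642 CPM in members, 289, 287, 223 and 52.4 CPM in the other blood endothelium and 225, 274, 62.6 and 48.6 CPM in non-endothelial barcodes. Its main genes were Car3 and Cfd. Adipoq, the adiponectin gene, was at 72.7, 48.9, 31.8 and 21.3 CPM in members, Retn at 150, 77.0, 27.3 and 39.5, Cidec at 95.8, 47.4, 18.2 and 27.4 and Plin1 at 19.7, 11.8, 13.6 and 0. The first 3 were above the other blood endothelium in every library, where Adipoq was at 1.57, 15.0, 2.78 and 1.10 CPM, and Lep was at 0 in young replicate 2 and aged replicate 1. The 6 fibroblast markers summed to 4042, 2721, 1681 and 1204 CPM in members, against 11500, 14449, 4203 and 2570 CPM in the other blood endothelium and 18349, 17858, 6302 and 6349 CPM in non-endothelial barcodes. They were thus lower in members than in the part they were compared with, and lower with age in all 3. One aged replicate 2 member had 41.3% of its UMIs from B and plasma cell markers. Haemoglobin genes made up 43.8% of another in that library and 46.7% of 1 in young replicate 1. Members with more than 1% of UMIs from the 9 marker lists of other cells numbered 38, 23, 1 and 12, so the fits with age were repeated without them. Simulated-doublet scores marked 24, 17, 1 and 13 members.

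Age was compared on UMIs summed over members, with 6907 genes tested by edgeR. The tests ask how the transcripts of members of the rule differ between aged and young libraries. In all, 36 genes rose and 76 fell, which is 0.521% and 1.1% of those tested, and 901 had an unadjusted p under 0.05. The libraries of the 2 ages did not overlap for all 112, as for 45.2% of the genes tested. From here on levels of single genes in members are TMM-scaled CPM unless said otherwise. Sums over lists and levels outside the members are CPM without TMM scaling. Fold changes are aged over young on the log2 scale. Of the genes that rose, 26 of 36 (72.2%) were more abundant in members than in non-endothelial barcodes. Of those that fell, 17 of 76 (22.4%) were, against 67.2% of all genes tested.

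Of 29 fatty acid handling genes tested, 1 fell, 0 rose and 28 were not called, with a median log2 fold change of -0.26 against 0.01 over all genes (the list includes Gpihbp1 of the rule). Lpl was at 782, 661, 274 and 248 CPM, so both aged libraries lay below the young ones. It fell by 1.48 on the log2 scale (SE 0.17, adjusted p = 0.0026), and by 1.34 to 1.74 with adjusted p up to 0.00593 over the 16 alternative fits. Its level in non-endothelial barcodes was also lower with age, at 839, 793, 400 and 378 CPM, and its part in the members' fall was not tested. Cd36 (log2 fold change -0.09, SE 0.13), Fabp4 (-0.06, SE 0.08), Meox2 (0.04, SE 0.17), Tcf15 (-0.05, SE 0.14), Pparg (-0.26, SE 0.19) and Aqp7 (-0.29, SE 0.19) had adjusted p from 0.57 to 0.96. The genes of the rule were in the fit, and nothing is read from their tests.

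Ubd rose the most among the 26 risen genes more abundant in members than in non-endothelial barcodes. It encodes a ubiquitin-like modifier induced by interferon and TNF, on chromosome 17 from 37193892 to 37196095. Its level was 5.12 and 2.95 CPM in the young and 112 and 183 CPM in the aged libraries, and it rose by 5.07 (SE 0.41, adjusted p = 0.000247), with a range of 4.21 to 5.52 over 16 alternatives. Non-endothelial barcodes held at most 0.530 CPM in any library. Of the members, 5, 2, 13 and 16 had a Ubd UMI, or 2.22%, 1.55%, 26.5% and 16%, and in aged replicate 2 a single barcode gave 38 of 59 UMIs. In the other blood endothelium Ubd was at 0, 2.49, 49.1 and 11 CPM without TMM scaling. Other interferon-linked genes were mostly not called: of 33 tested, 1 rose (Zbp1, a sensor of nucleic acids, 12.8, 8.84, 44.9 and 49.5 CPM, log2 fold change 2.05, SE 0.40, adjusted p = 0.034, but lost in 7 of 15 alternatives, with adjusted p up to 0.26) and 0 fell. Plscr1, a phospholipid scramblase gene that interferon induces and that was not on the list, went from 14.5 and 13.3 to 89.9 and 58.8 CPM (2.34, SE 0.37, adjusted p = 0.014).

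In the MHC class I list, 16 of 18 had a positive log2 fold change, the median was 0.42, and 0 passed the edgeR test. H2-D1, a classical class I heavy chain, was at 0.57 (SE 0.12, adjusted p = 0.054). For class II all 6 genes tested were positive (median 1.36) and 0 passed. Their list summed to 789, 785, 808 and 2795 CPM without TMM scaling, so aged replicate 2 alone was high. The macrophage markers in members were also highest there, at 979, 1257, 395 and 2540 CPM, and that library holds the member rich in B and plasma cell UMIs. Their part was not tested. H2-Aa was at 145, 121, 99.9 and 432 CPM in members and 1317 to 2707 in non-endothelial barcodes, without TMM scaling.

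Cldn5 rose from 2413 and 2478 to 3936 and 3622 CPM (0.62, SE 0.12, adjusted p = 0.027). It kept its direction in all 16 alternatives, at 0.33 to 0.69, and its call in 11. Calls were lost without young replicate 2 (adjusted p = 0.052), in the replicate block (0.061), with Plvap at 0 UMIs (0.065), in members low in other cells' markers (0.074) and after thinning (0.30). It was the 1 gene of 14 tested on the junction list that passed.

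Cdkn1c, the imprinted inhibitor p57, was at 624, 760, 247 and 288 CPM and fell by 1.37 (SE 0.18, adjusted p = 0.0049), called in all 16 alternatives. It was the only 1 of 14 tested on a senescence list that passed, and Cdkn1a was at -0.75 (SE 0.24, adjusted p = 0.20). Hspa1a, an inducible heat shock protein, went from 1048 and 852 to 279 and 204 CPM, a fall of 2.00 (SE 0.19, adjusted p = 0.0011). Hspa1b, its near-identical neighbour, fell by 1.58 (SE 0.24, adjusted p = 0.011), and reads of the pair may be split between them. Fosb fell too (-1.14, adjusted p = 0.037) but kept the call in 10 of 16 alternatives, with adjusted p up to 0.21 (DESeq2) and losses without aged replicate 2 (0.075) and young replicate 1 (0.067). Thus 3 of 27 genes of the dissociation stress list fell, 0 rose, 24 were not called and the median was -0.39. Hspa1a in non-endothelial barcodes was 263, 267, 173 and 97.4 CPM.

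Of 12 genes of the mitochondrial genome tested, 6 fell, 0 rose and 6 were not called, with a median of -0.83. The calls of mt-Nd2, mt-Nd3 and mt-Nd4 held in 16 of 16 alternatives, those of mt-Nd1 in 15, mt-Cytb in 14 and mt-Nd5 in 11, the last lost with the mitochondrial share held to 10% (adjusted p = 0.085) and without aged replicate 2 or either young replicate (0.051 to 0.096) among others. mt-Nd3 went from 321 and 333 to 89.9 and 96.0 CPM (-1.81, SE 0.18, adjusted p = 0.0011). In non-endothelial barcodes mt-Nd3 was also lower with age, at 260, 246, 66.3 and 81.4 CPM. Nuclear genes of oxidative phosphorylation, 35 tested, gave 0 calls (median 0.02).

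Of 16 arterial genes tested, 3 rose (Sox17, Gja5 and Fbln5), 0 fell and 13 were not called, with 12 positive changes, 4 negative ones and a median of 0.74. Sox17, an arterial transcription factor, was at 151, 161, 377 and 285 CPM (1.07, SE 0.18, adjusted p = 0.018). It lost the call in 6 of 16 alternatives, among them without young replicate 1 (adjusted p = 0.067) and without young replicate 2 (0.071). Gja5, the connexin of arterial endothelium, was at 8.54, 16.2, 49.4 and 71.2 CPM (2.41, SE 0.42, adjusted p = 0.021), from 10, 11, 11 and 23 UMIs, and lost the call without aged replicate 2 (adjusted p = 0.20), with Plvap at 0 UMIs (0.11) and by DESeq2 (0.075). Fbln5, an elastic fibre protein, was at 108, 109, 373 and 276 CPM (1.56, SE 0.19, adjusted p = 0.0034). Vwf, a clotting factor of larger vessels and the 1 call among 7 venous genes tested, went from 5.12 and 13.3 to 67.4 and 46.4 CPM (2.72, SE 0.49, adjusted p = 0.023), and its adjusted p was 0.053 without aged replicate 2 and 0.17 with Plvap at 0 UMIs.

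A minority of members carried arterial connexins. Members with a UMI of the arterial connexins Gja4 or Gja5 numbered 16, 18, 12 and 19, or 7.11%, 14.0%, 24.5% and 19.0%. Thinned to 2000 UMIs the shares were 3.31%, 5.50%, 26.8% and 21.9%, with at most 0.209% in leukocyte barcodes. In these members Fbln5 was 266, 267, 1080 and 827 CPM and Vwf 18.5, 44.5, 222 and 203 CPM, without TMM scaling. In the remaining members Fbln5 was 82.4, 70.3, 95.4 and 110 CPM and Vwf 2.98, 5.55, 6.36 and 0 CPM; the ages overlapped for Vwf. There the log2 fold change of Fbln5 was 0.43 (adjusted p = 0.55) and that of Sox17 0.65 (adjusted p = 0.16). In that fit 14 of the 36 risen genes and 68 of the 76 fallen ones were called. Of the 26 risen genes more abundant in members than in non-endothelial barcodes, 10 were. Genes below the count filter of that fit could not be called. Lpl (-1.34, adjusted p = 0.0023), Cdkn1c (-1.20, adjusted p = 0.0050), Ubd (5.06, adjusted p = 3.19e-05), Hspa1a (-2.33, adjusted p = 3.19e-05) and Cldn5 (0.69, adjusted p = 0.034) passed there too. This split was chosen after the values were seen, and the part of the share of such members in the age change was not tested.

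Other genes that rose had varied roles. Sncg, gamma-synuclein, went from 80.2 and 84.0 to 211 and 195 CPM (1.30, SE 0.18, adjusted p = 0.0081). Upp1, uridine phosphorylase, went from 25.6 and 30.9 to 153 and 92.9 CPM (2.09, SE 0.30, adjusted p = 0.0096). Both lost the call after thinning, and Sncg also with Plvap at 0 UMIs. Col8a1, a short-chain collagen of vessel walls, was at 18.8, 22.1, 126 and 74.3 CPM (2.25, SE 0.34, adjusted p = 0.012). Vegfc, the lymphatic growth factor, was at 20.5, 17.7, 80.9 and 68.1 CPM (1.91, SE 0.32, adjusted p = 0.018) and was the 1 call among 18 VEGF and angiopoietin genes. It kept the call in 11 of 14 alternatives and lost it by DESeq2 (adjusted p = 0.079), with Plvap at 0 UMIs (0.13) and with fat-type genes at 5 or more UMIs (0.14). Atp2a3, Hrct1, Ptprr, Nepn, AU021092, Ehd4 and AC149090.1 also rose, by 1.06 to 2.87. Atp2a3 and Ptprr each kept the call in 13 of 15 alternatives, and both lost it in members without Gja4 or Gja5 UMIs. Atp2a3 also lost it with Plvap at 0 UMIs, and Ptprr with fat-type genes at 5 or more UMIs. Ehd4 kept its call in 9 of 16 alternatives and Nepn and AC149090.1 in 11 each, all 3 losing it by DESeq2 (adjusted p = 0.061, 0.15 and 0.090). Without aged replicate 2, Ehd4 (0.052), Nepn (0.067) and AU021092 (0.17) were not called, and without young replicate 2 Hrct1 (0.11) was not. Cd52 and Apod rose too, Cd52 with a call in 11 of 16 alternatives and none without aged replicate 2 (adjusted p = 0.052). Both, like Ehd4 and AC149090.1, were more abundant in non-endothelial than in member barcodes, and 1 barcode gave all 43 Apod UMIs of aged replicate 1. For 4 of the 36 risen genes (Apod, Ctgf, Igkc and Ccl8) 1 barcode held more than 50% of the aged UMIs. For Igkc it gave 7817 of 7950 UMIs in aged replicate 2.

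**Figure D3:**
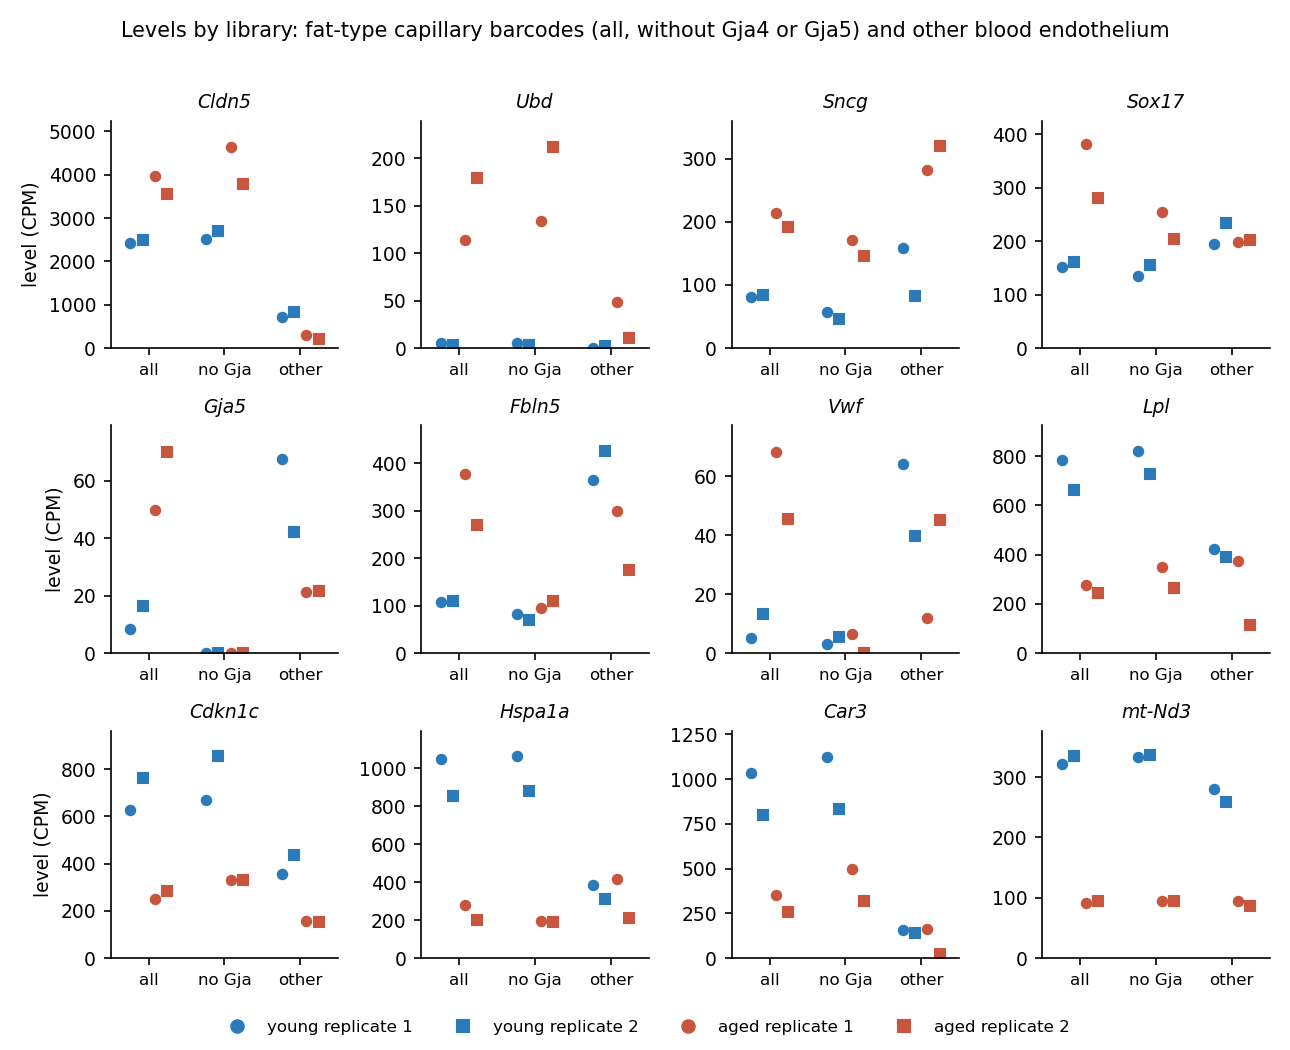
Levels (CPM without TMM scaling, vertical axes from 0) of 12 genes in each library, in all fat-type capillary barcodes, in those without Gja4 or Gja5 UMIs and in the other blood endothelium. Ubd, Lpl, Cdkn1c and Hspa1a do not overlap between ages in all members or in those without Gja4 or Gja5 UMIs, while Fbln5 lies between 70.3 and 110 CPM once these are left out.

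Matrix genes of fibroblasts were among the strongest falls. Col1a1 was at 436, 317, 35.9 and 21.7 CPM (-3.77, SE 0.30, adjusted p = 0.000247), Col3a1 at 889, 629, 71.9 and 40.2 CPM (-3.82, SE 0.28, adjusted p = 0.000238) and Col1a2 at 700, 547, 67.4 and 86.7 CPM (-3.00, SE 0.22, adjusted p = 0.000238). All 3 were higher in non-endothelial barcodes, where Col1a1 went from 2421 and 2264 to 285 and 259 CPM. Igfbp6, Mfap5, Fn1, Clec3b, C3, Dpt and Gsn, genes that fibroblasts express, fell by 1.61 to 4.18 and were likewise higher outside the endothelium. With doublets removed Igfbp6 (-1.18, adjusted p = 0.25), Mfap5 (-0.18, adjusted p = 0.95), Fn1 (-0.54, adjusted p = 0.80), Clec3b (-0.85, adjusted p = 0.57), C3 (-0.64, adjusted p = 0.70) and Gsn (-0.44, adjusted p = 0.75) were no longer called. In members low in other cells' markers, a filter that uses the fibroblast markers themselves, 44 of the 76 falling genes could be tested. Of the 59 falling genes more abundant outside the endothelium, 9 were called there. Genes below the count filter of that fit could not be called, so 9 of 59 is not a share of the genes tested. In the same fit 15 of the 17 falling genes more abundant in members were called, and 22 of the 26 rising ones. Of 19 basement membrane genes, 4 fell (Lamb1, Nid1, Sparc and Fn1) and 0 rose. With doublets removed Lamb1 (adjusted p = 0.27) and Nid1 (0.22) lost the call like Fn1, and in members low in other cells' markers all 3 did (0.18, 0.32 and 0.88). Lamb1 also lost it without aged replicate 2 (0.17) and by DESeq2 (0.20). Sparc, a collagen-binding protein, was at 4757, 4019, 2193 and 2467 CPM (-0.92, SE 0.13, adjusted p = 0.0082), called in 15 of 16 alternatives, and 5158, 5424, 586 and 632 CPM in non-endothelial barcodes.

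Of 5 adipocyte markers tested, Car3 and Cfd fell, 0 rose and 3 were not called. Car3, a carbonic anhydrase of fat and muscle, was at 1030, 797, 350 and 263 CPM (-1.59, SE 0.19, adjusted p = 0.0034), and Cfd, the adipsin gene, at 823, 575, 319 and 285 CPM (-1.22, SE 0.20, adjusted p = 0.015). Both were called in all 16 alternatives. Adipoq was at -1.28 (adjusted p = 0.17). Car3 was present in 72.0%, 60.5%, 36.7% and 30% of members, and in 12.8%, 13.2%, 4.65% and 4.55% of leukocyte barcodes. The proximal tubule genes Slc34a1 and Miox fell as well. Slc34a1, a phosphate transporter, was at 78.5, 147, 0 and 3.10 CPM, and 1 barcode gave 83 of 92 UMIs in young replicate 1.

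**Figure D4:**
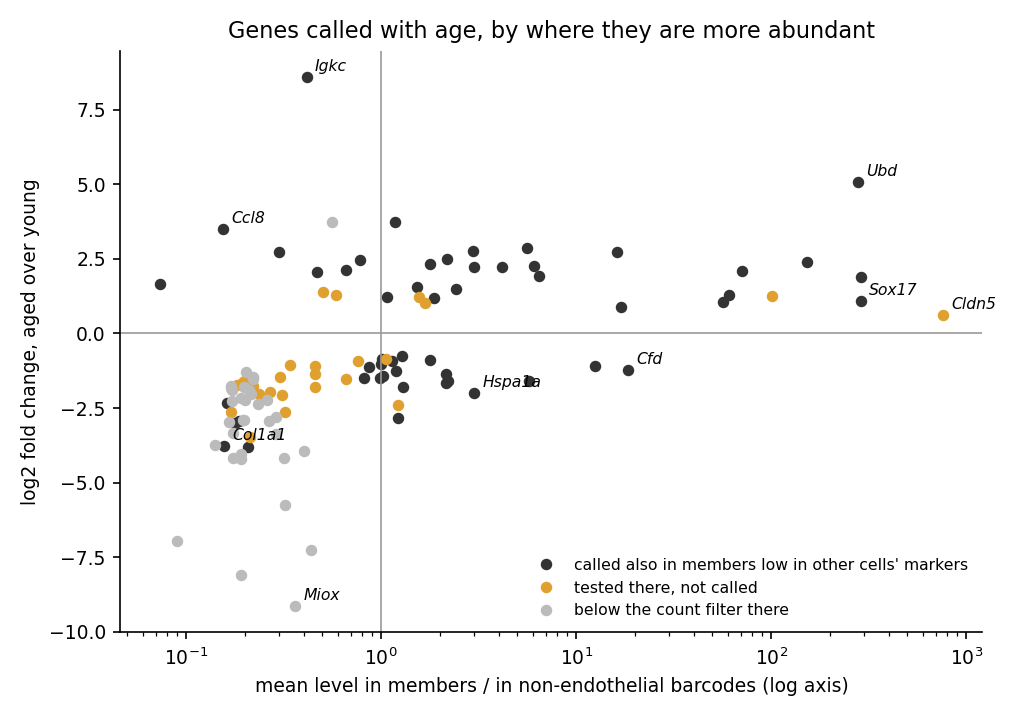
Each point is 1 of the 112 genes called with age, placed by its mean level in members over that in non-endothelial barcodes (log axis) and its log2 fold change, with colours for the fit in members low in other cells' markers. Of 76 falling genes 59 lie left of the line at equal level, and of 36 rising genes 26 lie right of it.

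The age change of members was set against that of the other blood endothelium by an interaction test over 8907 genes, with the library as a block. For 76 genes (0.853%) the aged over young change was higher in members and for 29 (0.326%) lower. Timp4 and Rbp7 chose the members and are left out of what follows, which leaves 74 higher and 29 lower. The other part was not the same mix at both ages: barcodes with 2 or more Plvap UMIs were 41 of 87, 33 of 71, 187 of 235 and 502 of 572 of it. Against the Plvap part alone, 65 of these 103 (63.1%) were called in the same direction. That part was not alike at both ages either, with Timp4 at 206, 460, 9.39 and 8.02 CPM without TMM scaling. This fit therefore does not hold the make-up of the other part constant, and its share in the differences was not tested. Cldn5 had the smallest p (2.31, SE 0.18, adjusted p = 0.000166). It rose in members and fell in the other part from 716 and 840 to 296 and 218 CPM without TMM scaling (log2 fold change -1.63, adjusted p = 0.00152). Igfbp7, a secreted binding protein of vessels, held at 2106, 2126, 1930 and 2220 CPM in members without TMM scaling. In the others Igfbp7 went from 2648 and 2623 to 887 and 792 CPM (1.70, SE 0.18, adjusted p = 0.00102 by the interaction test). Among the higher genes, 57 of 74 had fallen in the other part and 14 had risen in members. Over all genes, 568 of 9117 tested fell in the other part and 36 of 6907 rose in members. The 74 genes were picked by this difference in the same libraries, so their counts are a description only. C1qtnf9, an adiponectin-related hormone gene (2.41), Lmo1 (2.88), the caveolar protein Cav1 (1.46) and the drug pump Abcb1a (2.89) also had a higher change in members, with members' own changes between -0.07 and 0.82 and adjusted p from 0.12 to 1.00.

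Aqp7, Angptl4, Meox2 and Fabp4 also passed the interaction test and none of them passed the age test in members. Meox2 went from 94.2 and 79.8 to 38.0 and 17.1 CPM in the others. These 4 were picked from the list after their values were seen. In the other direction, Plpp1 (-1.46, adjusted p = 0.00969) and Eng, a coreceptor of TGF-beta (-1.39, adjusted p = 0.0115), rose in the others (1.54 and 1.33) and were not called in members (0.04 and -0.11), and Eng was not called against the Plvap part (adjusted p = 0.056). Hspa1a fell in members (-2.00) and was not called in the others (-0.19, adjusted p = 0.79), with a difference of -1.69 (SE 0.24, adjusted p = 0.00513) that was not called without the library block (adjusted p = 0.095).

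**Figure D5:**
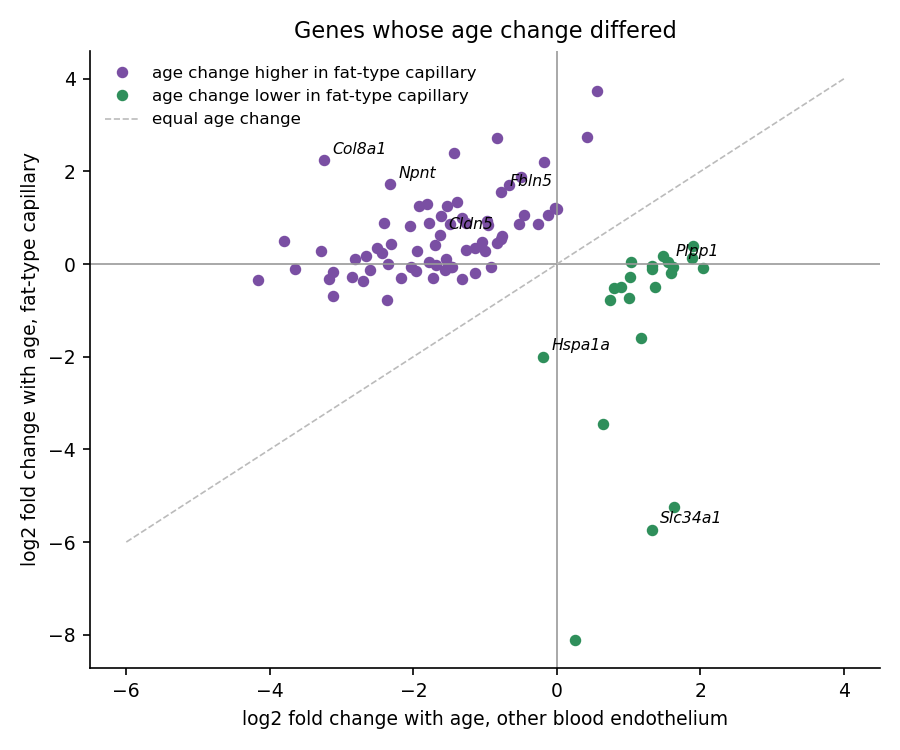
Log2 fold change with age in members (vertical) against that in the other blood endothelium (horizontal) for the 92 genes called for a different age change and tested in both parts, with a dashed line at equal change. The 70 genes with the higher change in members lie mostly at falls in the other part and near 0 or above in members.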

How the data were processed

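The deposited files hold raw UMI counts per gene and barcode, which the authors made with Cell Ranger (6.0.2 per the submitters' processing notes, 6.0.1 per the file headers) on GRCm38. Barcodes were filtered and members selected on these counts, and the members and gene lists were chosen with earlier results of these data known. Counts were summed per library and part, and young and aged libraries (n = 2 each) were compared with edgeR 4.0.16 (R 4.3.3), TMM scaling, filterByExpr, the quasi-likelihood test and Benjamini-Hochberg adjustment at 0.05 over all genes tested. An interaction model with the library as a block compared the age change between parts. The scripts were tested on simulated data. Genes named are the 15 that rose and the 15 that fell with the smallest p (adjusted p under 0.05, at least 2-fold, libraries not overlapping), the called genes of the lists, the 15 highest and 10 lowest against the other endothelium, and 10 interaction genes in each direction, of which 1 is not reported here. Other genes are named from the lists. DESeq2 1.42.0 was an alternative. Doublets were marked with Scrublet in scanpy 1.11.5, and were kept in the main fit. Intervals cover counting error only.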

Additional observations from a re-analysis of the deposited data

Results flagged for a closer look

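The following genes changed differently with age in members and in the other blood endothelium, by the interaction test in edgeR (log2 difference of the aged over young change, members minus others). Their causes were not tested. The difference was positive for Cldn5 (2.31), Col8a1 (5.59), Fbln5 (2.41), Igfbp7 (1.70), Lmo1 (2.88), C1qtnf9 (2.41), Npnt (4.10), Fmo2 (1.98), Abcb1a (2.89) and Cav1 (1.46). Fmo2 was not called against the part with 2 or more Plvap UMIs (0.89, adjusted p = 0.36). It was negative for 1810011O10Rik (-1.83), Hspa1a (-1.69), Plpp1 (-1.46) and Eng (-1.39). It was also negative for Slpi (-10.92), where 1 barcode gave 666 of the 668 UMIs of young replicate 2 and the call was lost without the library block. Genes of kidney tubule gave Akr1c21 (-7.73), Spink1 (-6.23), Slc34a1 (-7.06) and Fxyd2 (-4.04). These 4 were not called without aged replicate 2, nor without the library block.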

How the results depend on the processing

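The count of genes called with age was 112. It was 65 by DESeq2, 21 after thinning to 2000 UMIs, 388 with every gene tested, 62 with Plvap at 0 UMIs and 117 to 242 with 1 library left out (242 without aged replicate 1). Deviations of same-numbered libraries from the mean of their age correlated at 0.093 over genes. With 2 libraries per age the deviations mirror each other, so both pairs give the same value. Nothing in the labels says that the numbers mark pairs, and they were not taken as pairing. The replicate block gave 112 calls (31 higher, 81 lower). The interaction count was 105. It was 304 with every gene, 67 with no replicate block, 169 in members low in other cells' markers (chosen after seeing the data) and 89 to 224 with 1 library left out (224 without young replicate 2). The log2 ratio of the share of all barcodes was -1.30. It reversed to 0.43 with no condition on Plvap, was -0.61 of barcodes without Ptprc UMIs and -2.15 of endothelial barcodes, and ranged from -1.68 to -0.78 with 1 library left out (-0.78 without young replicate 1). Among endothelial barcodes the ratio of -2.15 became -0.44 with no condition on Plvap and -1.97 in members low in other cells' markers (added after seeing the data), and ranged from -2.25 to -2.05. The causes were not tested. Aged sums of 220161 and 328806 UMIs limit the genes that can be tested.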

Other observations

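Ribosomal protein genes leaned upward in aged members without a call: 49 of 52 had a positive log2 fold change (median 0.25) and 0 passed edgeR's test. In the Notch list 10 of 15 were positive (median 0.30) and 0 passed. Over all 6907 genes 3496 were positive. Members with UMIs of all 3 genes Timp4, Rbp7 and Gpihbp1 were 60%, 55.8%, 34.7% and 47.0% in young replicates 1 and 2 and aged replicates 1 and 2. Members with a UMI of the proliferation genes Mki67 or Top2a numbered 3, 0, 1 and 1.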
